A study of Homo sapiens with 15 samples.

Results

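The genes described here regulate or mark the epithelial-mesenchymal transition: 3 classical cadherins (CDH1, CDH2, CDH3), the epithelial adhesion molecule EPCAM, the intermediate filament gene VIM, and the transcription factors ZEB1, ZEB2, SNAI1, SNAI2 and TWIST1. They were found by their gene symbols in the count tables, and all 10 were present among the 60649 genes listed. RNA was sequenced from HSC-5 cells, an established line of human cutaneous squamous cell carcinoma, made to express Cas9 and given 1 of 5 constructs, with 3 libraries each and 15 in all. The sgNeg libraries, from the control that the paper describes as an empty vector, are labelled wild type (WT), the sgPRMT5-1 and sgPRMT5-2 libraries are labelled PRMT5 Knockout, and the sgWDR77-1 and sgWDR77-2 libraries are labelled WDR77 Knockout. The labels give Neomycin as the treatment of every group, sgNeg included. The 6 libraries of both PRMT5 sgRNAs are called PRMT5KO and the 6 of both WDR77 sgRNAs WDR77KO. The labels call the replicates biological replicates and do not say whether each line was a clone or a pool. Reads assigned to genes ranged from 5434211 to 5824192 per library in sgNeg, from 5958936 to 6704352 with sgPRMT5-1 and from 6058519 to 6730428 with sgPRMT5-2. The sgWDR77-1 libraries held 5146711 to 5489385 such reads and the sgWDR77-2 libraries 5225996 to 5613325.

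In the epithelial-mesenchymal transition, cells loosen the E-cadherin contacts that hold an epithelial sheet together and take up a motile, mesenchymal form. SNAI, ZEB and TWIST factors drive this program, the SNAI and ZEB proteins in part by binding E-box sequences and repressing epithelial genes such as CDH1, while N-cadherin and vimentin are classical markers of the mesenchymal state. Squamous carcinoma cells often hold a mixed state in which epithelial and mesenchymal genes are expressed together, and PRMT5, an arginine methyltransferase, works in a complex with its partner WDR77.

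The sgRNA labels were checked against the targeted genes. PRMT5 was measured at 59.1, 49.6 and 67.8 normalized CPM (reads scaled to a common library size) in sgNeg, at 33.0, 35.8 and 41.4 CPM in sgPRMT5-1, and at 44.2, 44.5 and 39.4 CPM in sgPRMT5-2. All 6 PRMT5KO libraries were below all 3 sgNeg libraries (log2 fold change -0.57, SE 0.119, limma adjusted p = 0.00874). WDR77 was measured at 125, 114 and 119 CPM in sgNeg, at 30.9, 52.0 and 53.3 CPM in sgWDR77-1, and at 26.6, 24.9 and 22.0 CPM in sgWDR77-2, so that all 6 WDR77KO libraries were below all 3 sgNeg libraries (log2 fold change -1.86, SE 0.216, adjusted p = 9.0e-05). By the correlation of log2 levels across genes, sgWDR77-1 replicate 1 was the library least like the others of its group (mean r 0.972, against 0.979 to 0.992 for the other 14), so some values without it are given. WDR77 itself did not differ between the WDR77 sgRNAs past the threshold (-0.86, adjusted p = 0.177), but did without that library (-1.13, adjusted p = 0.000554). With that library kept, it also passed with no count filter (adjusted p = 0.038) and in a fit over all 15 libraries (0.0157). It was called in 3 of 15 alternatives, with adjusted p up to 0.729. The cell type was checked in the same way: 9 keratinocyte and squamous markers were all detected and summed to between 2381 and 3398 CPM per library, with KRT17 the most abundant, although KRT14 had 1 to 4 counts in each library. The 6 fibroblast markers summed to between 0.177 and 1.64 CPM and the 4 leukocyte markers to between 0 and 0.740 CPM. The keratinocyte and squamous sum was lower in all 3 sgPRMT5-2 libraries (2381 to 2485 CPM) and all 3 sgWDR77-1 libraries (2415 to 2811 CPM) than in the 3 sgNeg libraries (2914 to 3398 CPM). Its genes differed in pattern: KRT5 averaged 656 ± 153 CPM (SD, n = 3) in sgNeg, 270.3 ± 57.0 with sgPRMT5-1, 55.9 ± 4.77 with sgPRMT5-2, 40.0 ± 5.39 with sgWDR77-1 and 91.3 ± 9.60 with sgWDR77-2, and the means of KRT6A, PKP1 and DSG3 were likewise lower in all 4 knockout groups than in sgNeg. KRT17 averaged 807 ± 72.1 CPM in sgNeg, 873 ± 93.4 with sgPRMT5-1, 723 ± 35.2 with sgPRMT5-2, 805 ± 59.9 with sgWDR77-1 and 1431 ± 19.0 with sgWDR77-2. SFN averaged 509 ± 51.4 CPM in sgNeg, 665 ± 51.9 with sgPRMT5-1 and 692 ± 14.6 with sgPRMT5-2. It averaged 506 ± 28.1 CPM with sgWDR77-1 and 641 ± 47.0 with sgWDR77-2. TP63 averaged 347 CPM in sgNeg, 391 with sgPRMT5-1, 330 with sgPRMT5-2, 433 with sgWDR77-1 and 369 with sgWDR77-2. PERP averaged 688.2 ± 51.31 CPM in sgNeg, 682.1 ± 63.75 with sgPRMT5-1 and 581.8 ± 14.91 with sgPRMT5-2. Its means were 752.7 ± 140.8 CPM with sgWDR77-1 and 715.1 ± 81.35 with sgWDR77-2. The 4 endothelial markers summed to between 33.4 and 38.9 CPM in sgNeg and to between 10.3 and 28.0 CPM in the 12 knockout libraries, with EGFL7 the most abundant (8.50 to 35.4 CPM), KDR at 0 in all libraries and PECAM1 at 3 counts or fewer. All 6 PRMT5KO libraries were also deeper than any sgNeg library. The part of these differences in markers and depth in the results was not tested. In RNA from bulk cultures, a change in the number of cells expressing a gene and a change in RNA per cell cannot be told apart.

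Levels of different genes were compared as CPM per kilobase of merged exons, which takes gene length into account. On that scale the epithelial genes led: EPCAM averaged 139 ± 21.5 (SD, n = 15), CDH1 64.1 ± 6.94 and CDH3 62.7 ± 4.84. SNAI2 (9.20 ± 1.52) and CDH2 (8.00 ± 3.56) came next, followed by SNAI1 (3.31 ± 0.927) and TWIST1 (2.75 ± 0.468). ZEB1 (0.0859 ± 0.0661), VIM (0.0762 ± 0.0645) and ZEB2 (0.00255 ± 0.00471) were close to the limit of detection. These means pool groups that differ. The order within the pairs CDH1 and CDH3, SNAI2 and CDH2, SNAI1 and TWIST1, and ZEB1 and VIM depended on the condition. The CDH3 libraries were all above the CDH1 libraries in sgNeg (57.1 to 65.2 against 49.0 to 54.8 CPM per kilobase) and with sgPRMT5-1, and all below them with sgPRMT5-2 (57.5 to 60.7 against 66.1 to 67.6) and sgWDR77-1. The SNAI1 libraries were all above the TWIST1 libraries in sgNeg except for a tie at 3.37 CPM per kilobase, and all below them with sgPRMT5-2 (1.64 to 2.49 against 2.65 to 3.66). In sgNeg, SNAI2 averaged 9.89 CPM per kilobase against 4.26 for CDH2, whereas in sgPRMT5-2 CDH2 averaged 13.7 against 9.28 for SNAI2, and in neither group did the libraries of these genes overlap. VIM averaged 0.0788 CPM per kilobase in sgNeg against 0.0447 for ZEB1, with overlapping libraries. With sgPRMT5-2 it averaged 0.0528 against 0.179 for ZEB1, without overlap but at 12 reads or fewer per library.

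**Figure D1:**
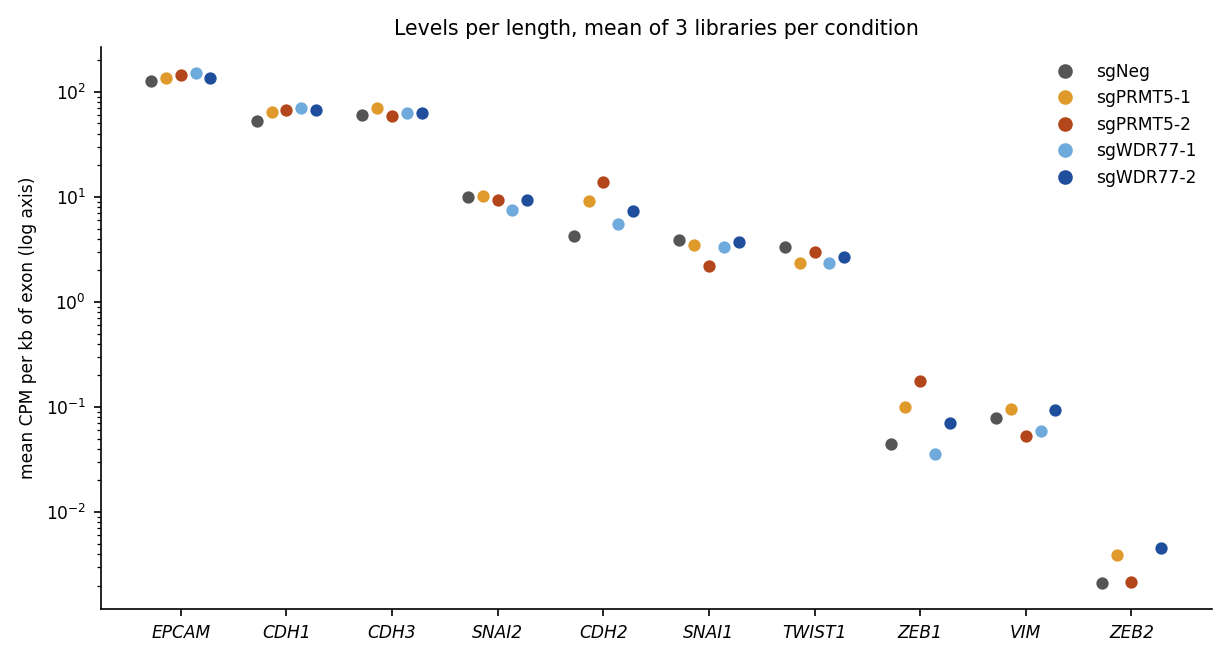
Level of each of the 10 genes in normalized CPM per kilobase of merged exons (log axis), with 1 point for the mean of 3 libraries in each of the 5 conditions. EPCAM, CDH1 and CDH3 lie highest and VIM, ZEB1 and ZEB2 lowest; the sgWDR77-1 mean of ZEB2 is 0 and cannot be drawn on a log axis.

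Differences were tested gene by gene with limma, over all genes with a mean normalized count of at least 3 in the libraries compared, and were called at an adjusted p below 0.05. Of the 10 genes, CDH1, CDH2, CDH3, SNAI1, SNAI2, TWIST1 and EPCAM passed this filter in all comparisons. ZEB1 passed in comparisons that include PRMT5 sgRNAs, where its counts were highest, and not in the others, and VIM and ZEB2 passed in none. The 3 sgNeg libraries are shared by the 6 comparisons against sgNeg, so these comparisons are not independent of each other. The PRMT5KO and WDR77KO fits took the 6 pooled libraries as replicates of a single group, with no term for the sgRNA. Their SEs, intervals and p-values therefore count libraries, and not the sgRNAs of a gene, as replicates.

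CDH2 encodes N-cadherin, the adhesion molecule of neural and mesenchymal cells (ENSG00000170558.10, chr18:27932879-28177946 on the minus strand, GRCh38). It was measured at 35.4, 31.1 and 43.2 CPM in sgNeg, at 70.9, 77.1 and 88.5 CPM in sgPRMT5-1, and at 125, 111 and 117 CPM in sgPRMT5-2. Every PRMT5KO library was above every sgNeg library, and every sgPRMT5-2 library was above every sgPRMT5-1 library. In the WDR77 sgRNAs, CDH2 was measured at 63.2, 45.3 and 33.9 CPM in sgWDR77-1 and at 71.2, 59.2 and 56.7 CPM in sgWDR77-2. The sgWDR77-2 libraries were all above sgNeg, while the sgWDR77-1 libraries overlapped sgNeg, with replicate 3 below the highest sgNeg library.

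**Figure D2:**
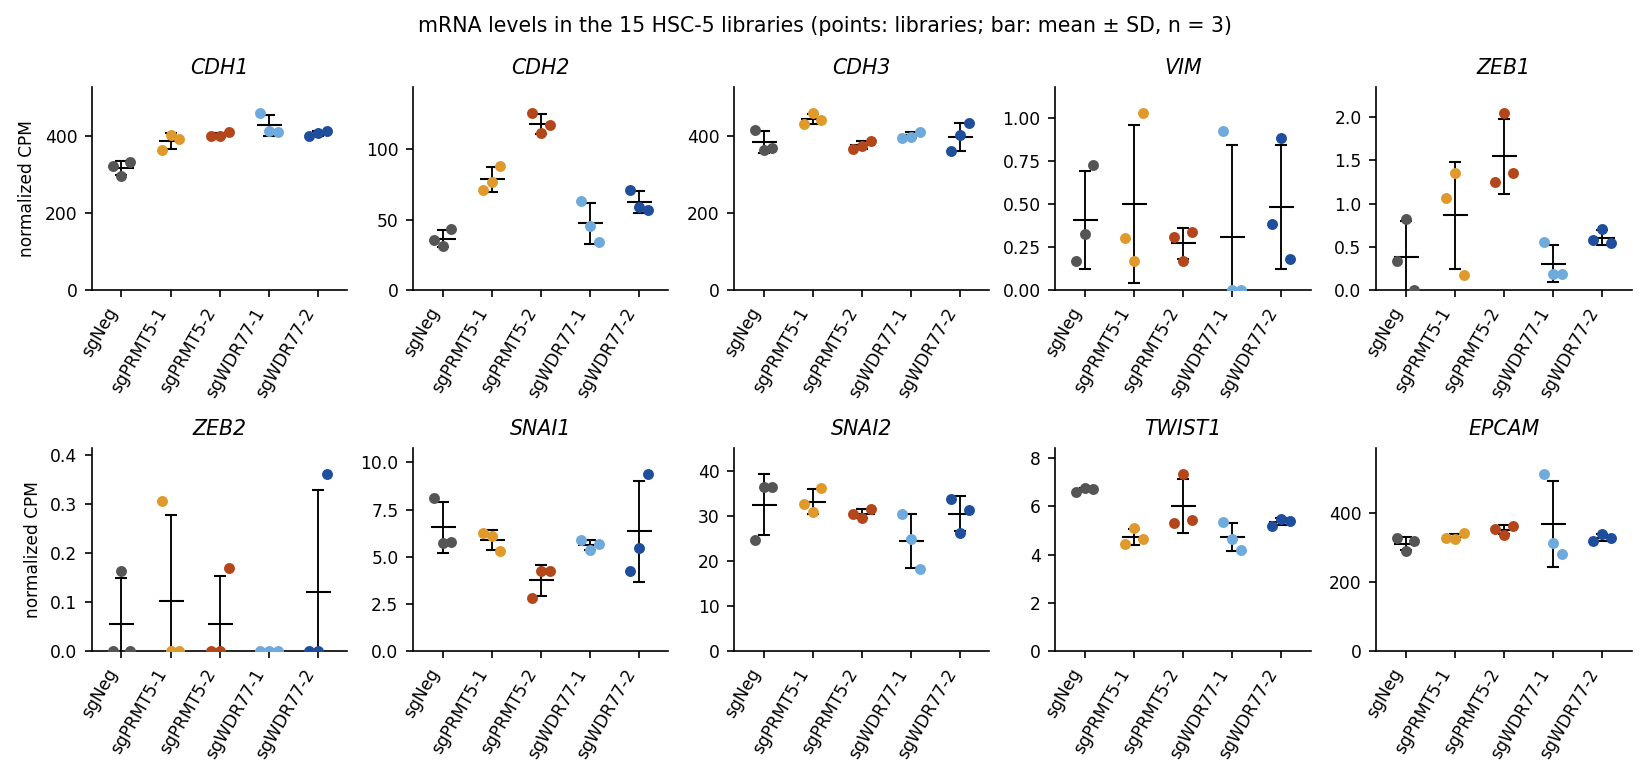
Level of each of the 10 genes in normalized CPM, 1 panel per gene, with 1 point per library and bars for the mean and SD of the 3 libraries of each condition. CDH2 runs from 31.1 CPM in sgNeg to 125 CPM in sgPRMT5-2, and ZEB2 and VIM stay at or below 1.03 CPM.

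CDH2 rose in PRMT5KO by 1.40 on the log2 scale (SE 0.197, 95% interval 0.98 to 1.82, adjusted p = 0.00151). With the sgRNAs taken singly, it rose 2.14-fold with sgPRMT5-1 (log2 fold change 1.10, SE 0.130, adjusted p = 7.3e-05) and 3.25-fold with sgPRMT5-2 (1.70, SE 0.104, adjusted p = 2.5e-10). The difference between the PRMT5 sgRNAs was itself past the threshold, with sgPRMT5-2 higher by 0.60 (SE 0.0885, adjusted p = 8.3e-05). CDH2 also rose with sgWDR77-2, 1.71-fold (log2 fold change 0.77, SE 0.132, adjusted p = 0.00302). With sgWDR77-1 the log2 fold change was 0.38 (95% interval -0.07 to 0.82, adjusted p = 0.372), and 0.13 (adjusted p = 0.675) without replicate 1. Between the WDR77 sgRNAs it was 0.42 (adjusted p = 0.398), and 0.64 (adjusted p = 0.0541) without that library. In WDR77KO as a whole the log2 fold change was 0.56 (95% interval 0.15 to 0.97, adjusted p = 0.136), which passed the threshold when all 15 libraries were fitted together (adjusted p = 0.0210) or when sgWDR77-1 replicate 3 was left out (0.69, adjusted p = 0.0215); over all alternatives its adjusted p ranged from 0.0210 to 0.418. CDH2 was higher in PRMT5KO than in WDR77KO by 0.85 (SE 0.169, 95% interval 0.49 to 1.20, adjusted p = 0.00499), although the lowest PRMT5KO library, at 70.9 CPM, lay below the highest WDR77KO library, at 71.2 CPM.

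The start regions of CDH2, ZEB1 and VIM are shown because CDH2 and ZEB1 had their highest counts with sgPRMT5-2, the latter at 12 reads or fewer, while VIM had 6 reads or fewer in every library. RefSeq promoter windows (GRCh38.p14) were available for CDH2, VIM, ZEB1 and ZEB2, 11 windows in all, and the 250 bases before the most upstream of these starts of CDH2 (chr18:28177131-28177380, minus strand), ZEB1 (chr10:31318167-31318416, plus strand) and VIM (chr10:17227991-17228240, plus strand) are printed 5′ to 3′. Capitals mark the E-box CACCTG, or CAGGTG on the other strand, which SNAI and ZEB proteins bind, and the GC box GGGCGG, or CCGCCC on the other strand, a motif chosen after the windows had been read.
CDH2: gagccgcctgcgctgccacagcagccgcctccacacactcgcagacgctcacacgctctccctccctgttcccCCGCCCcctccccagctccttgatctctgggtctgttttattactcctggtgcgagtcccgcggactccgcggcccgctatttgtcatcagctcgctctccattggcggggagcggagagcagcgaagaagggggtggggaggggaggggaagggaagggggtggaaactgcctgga
ZEB1: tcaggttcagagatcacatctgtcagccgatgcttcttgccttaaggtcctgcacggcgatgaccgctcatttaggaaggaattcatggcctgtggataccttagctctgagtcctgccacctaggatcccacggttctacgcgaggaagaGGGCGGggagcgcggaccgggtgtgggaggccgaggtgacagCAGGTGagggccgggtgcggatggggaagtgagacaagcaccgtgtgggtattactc
VIM: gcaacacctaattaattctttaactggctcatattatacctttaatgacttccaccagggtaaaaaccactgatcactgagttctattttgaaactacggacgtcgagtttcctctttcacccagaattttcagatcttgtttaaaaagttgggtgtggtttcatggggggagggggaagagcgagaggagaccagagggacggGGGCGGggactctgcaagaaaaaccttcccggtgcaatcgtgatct
The CDH2 stretch holds 1 GC box and no E-box with 66% G and C, the ZEB1 stretch holds 1 E-box and 1 GC box with 59.2% G and C, and the VIM stretch holds 1 GC box and no E-box with 46% G and C. The CDH2 stretch lies inside the gene as GENCODE v44 places it, whose start is further upstream. Exons of the antisense RNA gene ZEB1-AS1 overlap 4.58% of the exon bases of ZEB1, and their overlap with the printed stretch was not measured. An E-box was present in 17.5% and a GC box in 42.6% of the 250-base upstream stretches of all 35116 windows, so these letters are common, and a match describes the sequence without showing that a factor binds it. In windows of 300 bases, the other CDH2 window held neither motif, and of the 7 ZEB1 windows 2 held an E-box and 5 a GC box. Of all 11 windows, 2 held an E-box, against 20.6% of all windows, and 7 held a GC box, against 45% of all windows.

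CDH1 encodes E-cadherin, the adhesion molecule of epithelial cell contacts (ENSG00000039068.20, chr16:68737292-68835537, plus strand). It was measured at 323, 298 and 333 CPM in sgNeg, at 364, 405 and 394 CPM in sgPRMT5-1, and at 401, 402 and 411 CPM in sgPRMT5-2. In the WDR77 sgRNAs it was measured at 460.0, 416 and 411 CPM in sgWDR77-1 and at 400.1, 409 and 413 CPM in sgWDR77-2. All 12 knockout libraries were above all 3 sgNeg libraries. CDH1 rose in PRMT5KO by 0.30 on the log2 scale (SE 0.0646, 95% interval 0.17 to 0.44, adjusted p = 0.00955) and in WDR77KO by 0.40 (SE 0.0867, 95% interval 0.21 to 0.58, adjusted p = 0.0175). By sgRNA, it rose with sgPRMT5-2 (0.34, SE 0.0649, adjusted p = 0.000290), sgWDR77-1 (0.46, SE 0.110, adjusted p = 0.0452) and sgWDR77-2 (0.35, SE 0.0762, adjusted p = 0.0144). With sgPRMT5-1 the log2 fold change of 0.27 missed the threshold (SE 0.0807, adjusted p = 0.0691), and between PRMT5KO and WDR77KO the difference was -0.08 (adjusted p = 0.415). Leaving out single libraries ended several of these calls: without sgNeg replicate 2 the adjusted p became 0.0557 in PRMT5KO (0.00224 to 0.0557 over all alternatives), and without sgNeg replicate 1, 2 or 3 it became 0.0801, 0.118 or 0.0721 in WDR77KO (0.000708 to 0.118). Without sgWDR77-1 replicate 1, CDH1 was still called with sgWDR77-1 (0.39, adjusted p = 0.0103) and in WDR77KO (0.38, adjusted p = 0.00464). With sgWDR77-1 the adjusted p became 0.171, 0.175 or 0.196 without sgNeg replicate 1, 2 or 3 and 0.127 or 0.0565 without sgWDR77-1 replicate 2 or 3 (0.00135 to 0.196 over all alternatives). With sgWDR77-2 it became 0.0558 without sgNeg replicate 2 and 0.0666 without sgWDR77-2 replicate 2 (0.000840 to 0.0701), and with sgPRMT5-1 CDH1 was called with upper quartile scaling (0.0480) and with no count filter (0.00842, the lowest of a range up to 0.237). When limma was fitted with the replicate number as a block, CDH1 was called with sgPRMT5-1 (adjusted p = 0.0124). Under that block it was not called with sgWDR77-1 (0.0673) or sgWDR77-2 (0.0701).

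CDH3 encodes P-cadherin, found in the basal layer of stratified epithelia (ENSG00000062038.15, chr16:68636189-68727468, plus strand). It was measured at 417, 365 and 369 CPM in sgNeg, at 432, 459 and 442 CPM in sgPRMT5-1, and at 367, 374 and 388 CPM in sgPRMT5-2. The sgPRMT5-1 libraries were the highest of these, and the sgPRMT5-2 libraries overlapped sgNeg. CDH3 passed the threshold in no comparison against sgNeg (log2 fold changes between -0.03 and 0.20), and was lower with sgPRMT5-2 than with sgPRMT5-1 (log2 fold change -0.23, SE 0.0566, adjusted p = 0.00630, all 3 libraries below all 3). That call was lost in a fit over all 15 libraries (adjusted p = 0.0801) and without sgPRMT5-2 replicate 1 (adjusted p = 0.0566), within a range of 3.6e-05 to 0.0801 over all alternatives.

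The balance among the cadherins differed by sgRNA. Expressed as a percentage of CDH1 in CPM per kilobase, CDH2 was 8.11 ± 0.945 (SD, n = 3) in sgNeg, 14.4 ± 1.34 in sgPRMT5-1 and 20.6 ± 1.33 in sgPRMT5-2. These groups did not overlap, with the lowest sgPRMT5-1 library at 13.5% and the highest sgNeg library at 9.18%. The same percentage was 7.76 ± 1.94 in sgWDR77-1, which overlapped sgNeg, and 10.8 ± 1.54 in sgWDR77-2, whose libraries ran from 9.71 to 12.6%. CDH2 remained the least abundant of the 3 cadherins per length in each library, at 9.87% of their sum in sgPRMT5-2 and 3.65% in sgNeg.

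**Figure D3:**
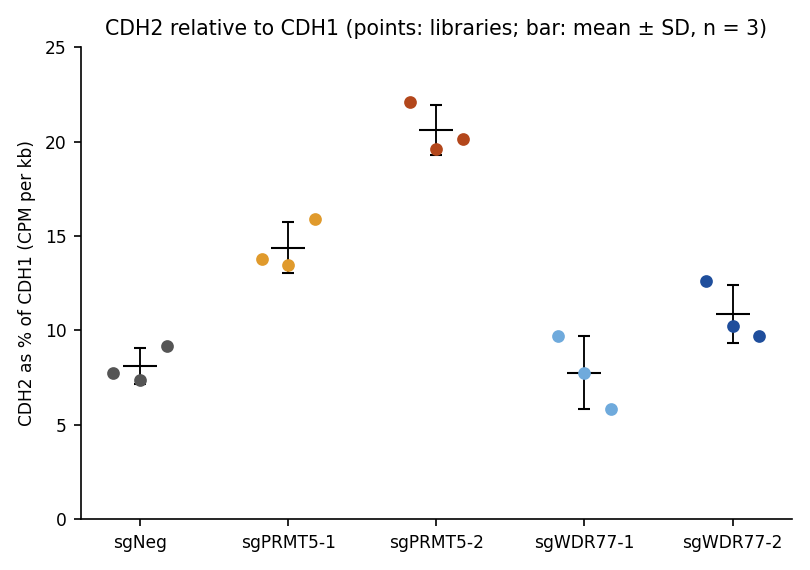
CDH2 as a percentage of CDH1, both in normalized CPM per kilobase of merged exons, by condition, with 1 point per library and the mean of 3 libraries with its SD. The sgPRMT5-2 libraries lie between 19.6 and 22.1% and the sgNeg libraries between 7.39 and 9.18%.

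EPCAM encodes a surface glycoprotein of simple epithelia and many carcinomas (ENSG00000119888.11, chr2:47345158-47387601, plus strand). It was measured at 326, 289 and 318 CPM in sgNeg, at 327, 324 and 341 CPM in sgPRMT5-1, and at 352, 337 and 363 CPM in sgPRMT5-2. The sgPRMT5-2 libraries were all above sgNeg, but EPCAM passed the threshold in none of the 9 comparisons, with a log2 fold change of 0.17 with sgPRMT5-2 (SE 0.0672, adjusted p = 0.0533). In sgWDR77-1 it was measured at 510.2, 311.5 and 280.1 CPM, so that replicate 1 held the highest EPCAM level of the 15 libraries and replicate 3 the lowest. The log2 fold change with sgWDR77-1 was 0.22 (adjusted p = 0.567), and -0.06 without replicate 1, which was also the library least like its group. The sgWDR77-2 libraries ran from 318 to 338 CPM. The sgPRMT5-2 difference passed the threshold without sgNeg replicate 1 (adjusted p = 0.0216), sgNeg replicate 3 (0.0484) or sgPRMT5-2 replicate 2 (0.0419), with upper quartile scaling (0.0193) and with no count filter (0.0187), and its adjusted p ranged over all alternatives from 0.0187 to 0.357.

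ZEB1 and ZEB2 encode zinc finger repressors of CDH1 (ZEB1 ENSG00000148516.23, chr10:31318495-31529814, plus strand; ZEB2 ENSG00000169554.22, chr2:144364364-144521057, minus strand). ZEB1 had 2, 5 and 0 reads in the sgNeg libraries, 7, 8 and 1 with sgPRMT5-1, and 8, 12 and 8 with sgPRMT5-2. The WDR77 sgRNAs gave 3, 1 and 1 reads (sgWDR77-1) and 3, 4 and 3 reads (sgWDR77-2). The sgPRMT5-2 libraries were all above sgNeg, and the other groups overlapped it. ZEB1 entered the test through the sgPRMT5-2 libraries, so that a difference there was built in and the fit is a description: with sgPRMT5-2 the log2 fold change was 2.23 (SE 0.719, 95% interval 0.73 to 3.73, adjusted p = 0.0179), and in PRMT5KO as a whole the log2 fold change was 1.70 (95% interval -0.18 to 3.58, adjusted p = 0.189). The sgPRMT5-2 value no longer passed the threshold without sgNeg replicate 3 (1.34, adjusted p = 0.115) and without sgPRMT5-2 replicate 2 (2.06, adjusted p = 0.0542), within a range of 0.00647 to 0.115 over all alternatives, and a count minimum of 10 left ZEB1 untested. ZEB2 had 6 reads in all 15 libraries together and none in 11 of them. A count of 0 allows up to 3 counts, which corresponds to between 0.458 and 0.578 CPM per library, and these limits cover counting error only.

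SNAI1, or Snail, is a zinc finger repressor of E-cadherin (ENSG00000124216.4, chr20:49982980-49988886, plus strand). It was measured at 8.13, 5.75 and 5.80 CPM in sgNeg, at 6.26, 6.11 and 5.31 CPM in sgPRMT5-1, and at 2.80, 4.25 and 4.23 CPM in sgPRMT5-2. The sgPRMT5-2 libraries, with 18 to 25 reads each, were below all sgNeg and all sgPRMT5-1 libraries. SNAI1 fell with sgPRMT5-2 (log2 fold change -0.82, SE 0.268, 95% interval -1.38 to -0.26, adjusted p = 0.0197), while with sgPRMT5-1 the log2 fold change was -0.15 (adjusted p = 0.777) and the difference between the PRMT5 sgRNAs was -0.67 (95% interval -1.20 to -0.14, adjusted p = 0.0708). With the WDR77 sgRNAs it ranged from 4.24 to 9.36 CPM, overlapping sgNeg, with log2 fold changes of -0.17 in sgWDR77-1 and -0.10 in sgWDR77-2. In PRMT5KO as a whole the log2 fold change of SNAI1 was -0.49 (95% interval -1.03 to 0.05, adjusted p = 0.190). The sgPRMT5-2 call was lost without sgNeg replicate 1 (-0.65, adjusted p = 0.0799) and without sgPRMT5-2 replicate 1 (-0.58, adjusted p = 0.139), within a range of 0.0111 to 0.139 over all alternatives, and the difference between the PRMT5 sgRNAs passed the threshold without sgPRMT5-1 replicate 3 (adjusted p = 0.0335, the lowest of a range up to 0.305).

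SNAI2, or Slug, a related repressor expressed in basal keratinocytes (ENSG00000019549.13, chromosome 8, minus strand), was the most abundant of the 5 transcription factors per length. It ranged from 18.2 to 36.3 CPM over the 15 libraries, with a mean of 32.4 ± 6.69 CPM (SD, n = 3) in sgNeg. The PRMT5 sgRNAs gave means of 33.1 ± 2.75 CPM (sgPRMT5-1) and 30.4 ± 0.955 CPM (sgPRMT5-2), and the WDR77 sgRNAs 24.5 ± 6.03 CPM (sgWDR77-1) and 30.4 ± 3.86 CPM (sgWDR77-2). Each knockout group overlapped sgNeg, while the sgWDR77-1 libraries (18.2 to 30.3 CPM) lay below the sgPRMT5-1 libraries (30.7 to 36.1 CPM). SNAI2 passed the threshold in none of the 9 comparisons (PRMT5KO log2 fold change -0.02, 95% interval -0.30 to 0.25, adjusted p = 0.919). TWIST1, a basic helix-loop-helix factor (ENSG00000122691.13, chr7:19020991-19117636, minus strand), was measured at 6.60, 6.74 and 6.71 CPM in sgNeg, at 4.43, 5.09 and 4.62 CPM in sgPRMT5-1, and at 5.29, 7.31 and 5.41 CPM in sgPRMT5-2. The sgPRMT5-1 libraries were all below sgNeg, as were the 6 WDR77KO libraries, which ran from 4.20 to 5.48 CPM, while the sgPRMT5-2 libraries overlapped sgNeg. None of these differences passed the threshold: the log2 fold change was -0.52 with sgPRMT5-1 (95% interval -1.02 to -0.02, adjusted p = 0.239) and -0.40 in WDR77KO (95% interval -0.82 to 0.01, adjusted p = 0.322).

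VIM encodes vimentin, the intermediate filament of mesenchymal cells (ENSG00000026025.16, chr10:17228241-17237593, plus strand). It had between 0 and 6 reads per library, 34 in the 15 libraries together, and none in 2 of the sgWDR77-1 libraries. VIM did not reach the count minimum in any comparison and was not tested, so no difference between groups was assessed. The strand setting of the read counting and the gene annotation used were not stated, so genes that overlap genes on the other strand are less certain: 24.6% of the exon bases of VIM lie under such genes, against at most 8.4% for the other 9, 28.2% for PRMT5 and 3.35% for WDR77.

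In PRMT5KO, 2 of the 8 genes tested were called, CDH1 and CDH2, both higher, against 17.0% of all genes tested. In WDR77KO, 1 of 7 was called, CDH1, against 3.39% of all genes. With sgPRMT5-1, 1 of 8 was called, CDH2, against 3.76% of all genes, whereas with sgPRMT5-2, 4 of 8 passed the threshold, CDH1, CDH2 and ZEB1 higher and SNAI1 lower, against 40.1% of all genes, a share near the background. It includes ZEB1, which was tested only because it was high there and adds nothing to the count. With sgWDR77-1, 1 of 7 was called, CDH1, against 2.71% of all genes (7.01% without sgWDR77-1 replicate 1 and 0.393% without sgNeg replicate 3), and with sgWDR77-2, 2 of 7 were called, CDH1 and CDH2, against 4.97%. Between the PRMT5 sgRNAs, 2 of 8 were called, CDH2 higher and CDH3 lower with sgPRMT5-2, against 19.2% of all genes. Between the WDR77 sgRNAs, limma called 0 of 7, with 1 at an unadjusted p below 0.05 (CDH2), against 0.121% of all genes (1.11% without sgWDR77-1 replicate 1). Between PRMT5KO and WDR77KO, 1 of 8 was called, CDH2, against 14.0% of all genes. An F test over the 5 conditions called 2 of 8, CDH2 (adjusted p = 5.6e-07) and CDH1 (adjusted p = 0.00189), against 35.8% of all genes. Leaving out 1 library moved these shares of all genes by over 1.5 times in every comparison but sgPRMT5-2 with sgNeg and the F test. The median log2 fold change of the genes tested was 0.10 in PRMT5KO and 0.06 in WDR77KO, beside -0.01 and 0.00 over all genes tested; since ZEB1 was tested through the libraries where it was high, these counts are a description.

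**Figure D4:**
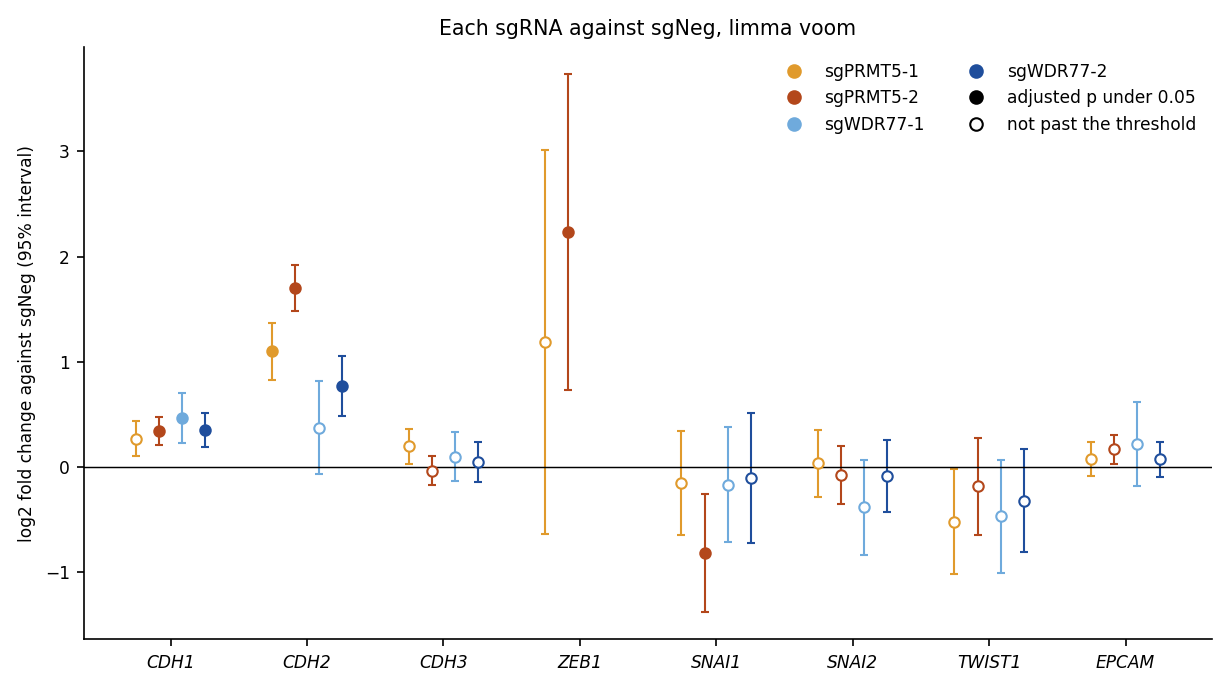
Log2 fold change with its 95% interval (limma) of each tested gene with each of the 4 targeting sgRNAs against sgNeg, filled where the adjusted p was below 0.05 and open where it was not. CDH2 lies at 1.10 and 1.70 with the PRMT5 sgRNAs, CDH1 between 0.27 and 0.46 with all 4, and ZEB1 at 2.23 with sgPRMT5-2 with an interval from 0.73 to 3.73.

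The genes were set beside 7 lists of genes with related roles, 69 genes in all, each present in the files. In PRMT5KO, 6 of 53 tested genes of the lists rose and 8 fell, against 17.0% of all genes called in either direction. Without sgNeg replicate 1, 2 or 3 the 14 calls became 6, 7 or 7, where 3.43, 4.80 or 9.19% of all genes were called. In WDR77KO, limma called 1 of 51, lower, with 16 at an unadjusted p below 0.05, against 3.39% of all genes called. Without sgNeg replicate 2, sgWDR77-1 replicate 1 or sgWDR77-2 replicate 1 that count became 2, 3 or 6, with no count filter it became 3, and in a fit over all 15 libraries it became 10, where 8.44% of all genes were called. The catenins and other proteins that tie cadherins to actin had 1 riser of 6 in PRMT5KO (median log2 fold change 0.08), the alpha-catenin gene CTNNA1, from 419 to 514 CPM (0.28, adjusted p = 0.0236, all 6 libraries above sgNeg). The epithelial transcription and splicing factors had 2 of 9 called, both lower (median -0.06): KLF5, from 65.8 to 45.0 CPM (-0.57, adjusted p = 0.00767), and ELF3, from 228 to 138 CPM (-0.80, adjusted p = 0.0178), all 6 libraries below sgNeg for each. Of 13 tight junction and epithelial surface genes, 1 rose and 3 fell (median 0.11). The tight junction scaffold gene TJP1 rose from 64.6 to 85.7 CPM (0.39, adjusted p = 0.0160), and the mucin gene MUC1 fell from 21.1 to 7.73 CPM (-1.53, adjusted p = 0.00216), with no overlap of either with sgNeg. CLDN4, a claudin (-0.27, adjusted p = 0.0257), and RAB25, an epithelial trafficking GTPase (-0.28, adjusted p = 0.0425), also fell. Leaving out single libraries ended several of these calls. CTNNA1 was not called without sgNeg replicate 2 or 3 (adjusted p = 0.132 or 0.0708) or sgPRMT5-2 replicate 1, 2 or 3 (0.0513, 0.0546 or 0.050), ELF3 not without sgNeg replicate 1, 2 or 3 (0.0782, 0.0566 or 0.0550), and TJP1 not without sgNeg replicate 1, 2 or 3 (0.0803, 0.0722 or 0.0599). CLDN4 was not called in a fit over all 15 libraries (0.217) or without sgNeg replicate 1 or 3 (0.0789 or 0.0810) or sgPRMT5-2 replicate 1 (0.0534), and RAB25 was called in 7 of 18 alternatives, and not without sgNeg replicate 1, 2 or 3 (0.168, 0.0522 or 0.0787) or sgPRMT5-2 replicate 1, 2 or 3 (0.0896, 0.0754 or 0.0690).

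Of the 7 other transcription factors of the transition that could be tested, none rose and 1 fell in PRMT5KO (median -0.32): FOXC1, a forkhead factor, from 32.1 to 22.2 CPM (-0.56, adjusted p = 0.0235, all 6 libraries below sgNeg). The 12 mesenchymal structure genes moved in both directions, 4 up and 2 down (median -0.11). Fibronectin (FN1) rose from 11.3 to 22.6 CPM (0.97, adjusted p = 0.00636), and its receptor subunit gene ITGA5 rose from 96.3 to 191 CPM (0.93, adjusted p = 0.00716). SPARC, a matricellular protein gene, fell from 10.3 to 0.761 CPM (-3.63, adjusted p = 0.00037), and LOX, a collagen crosslinking enzyme gene, fell from 8.45 to 3.84 CPM (-1.23, adjusted p = 0.0156). None of these 4 overlapped sgNeg. The named list genes were chosen for small adjusted p, so a lack of overlap adds nothing to their calls. The share of all genes without overlap was not counted. LOX was not called in PRMT5KO without sgNeg replicate 1 (-1.04, adjusted p = 0.0884), and FOXC1 not without sgNeg replicate 1, 2 or 3 (adjusted p = 0.0867, 0.0561 or 0.0682) or sgPRMT5-2 replicate 1 (0.0523). LOX also fell in WDR77KO, to 2.82 CPM (-1.61, adjusted p = 0.00495, all 6 libraries below sgNeg), the 1 call there among the 11 mesenchymal genes tested (median -0.19). The microRNA host genes had 0 of 2 called in PRMT5KO, with 1 at an unadjusted p below 0.05 in limma, and the other type I and type II cadherins 0 of 4, with 0 at an unadjusted p below 0.05 in limma. With sgPRMT5-2 alone, 13 of 52 tested genes of the lists rose and 14 fell, against 40.1% of all genes. Of 52 tested with sgPRMT5-1, 3 rose and 4 fell, against 3.76%. The sgWDR77-1 numbers were 4 and 3, against 2.71%, and the sgWDR77-2 numbers 1 and 2, against 4.97%. The 7 calls with sgWDR77-1 became 10 without its replicate 1 (7.01% of all genes) and 1 without sgNeg replicate 3 (0.393%). The 7 with sgPRMT5-1 became 3 without sgNeg replicate 1 (1.71%), and the 3 with sgWDR77-2 became 1 without its replicate 2 (2.08%).

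**Figure D5:**
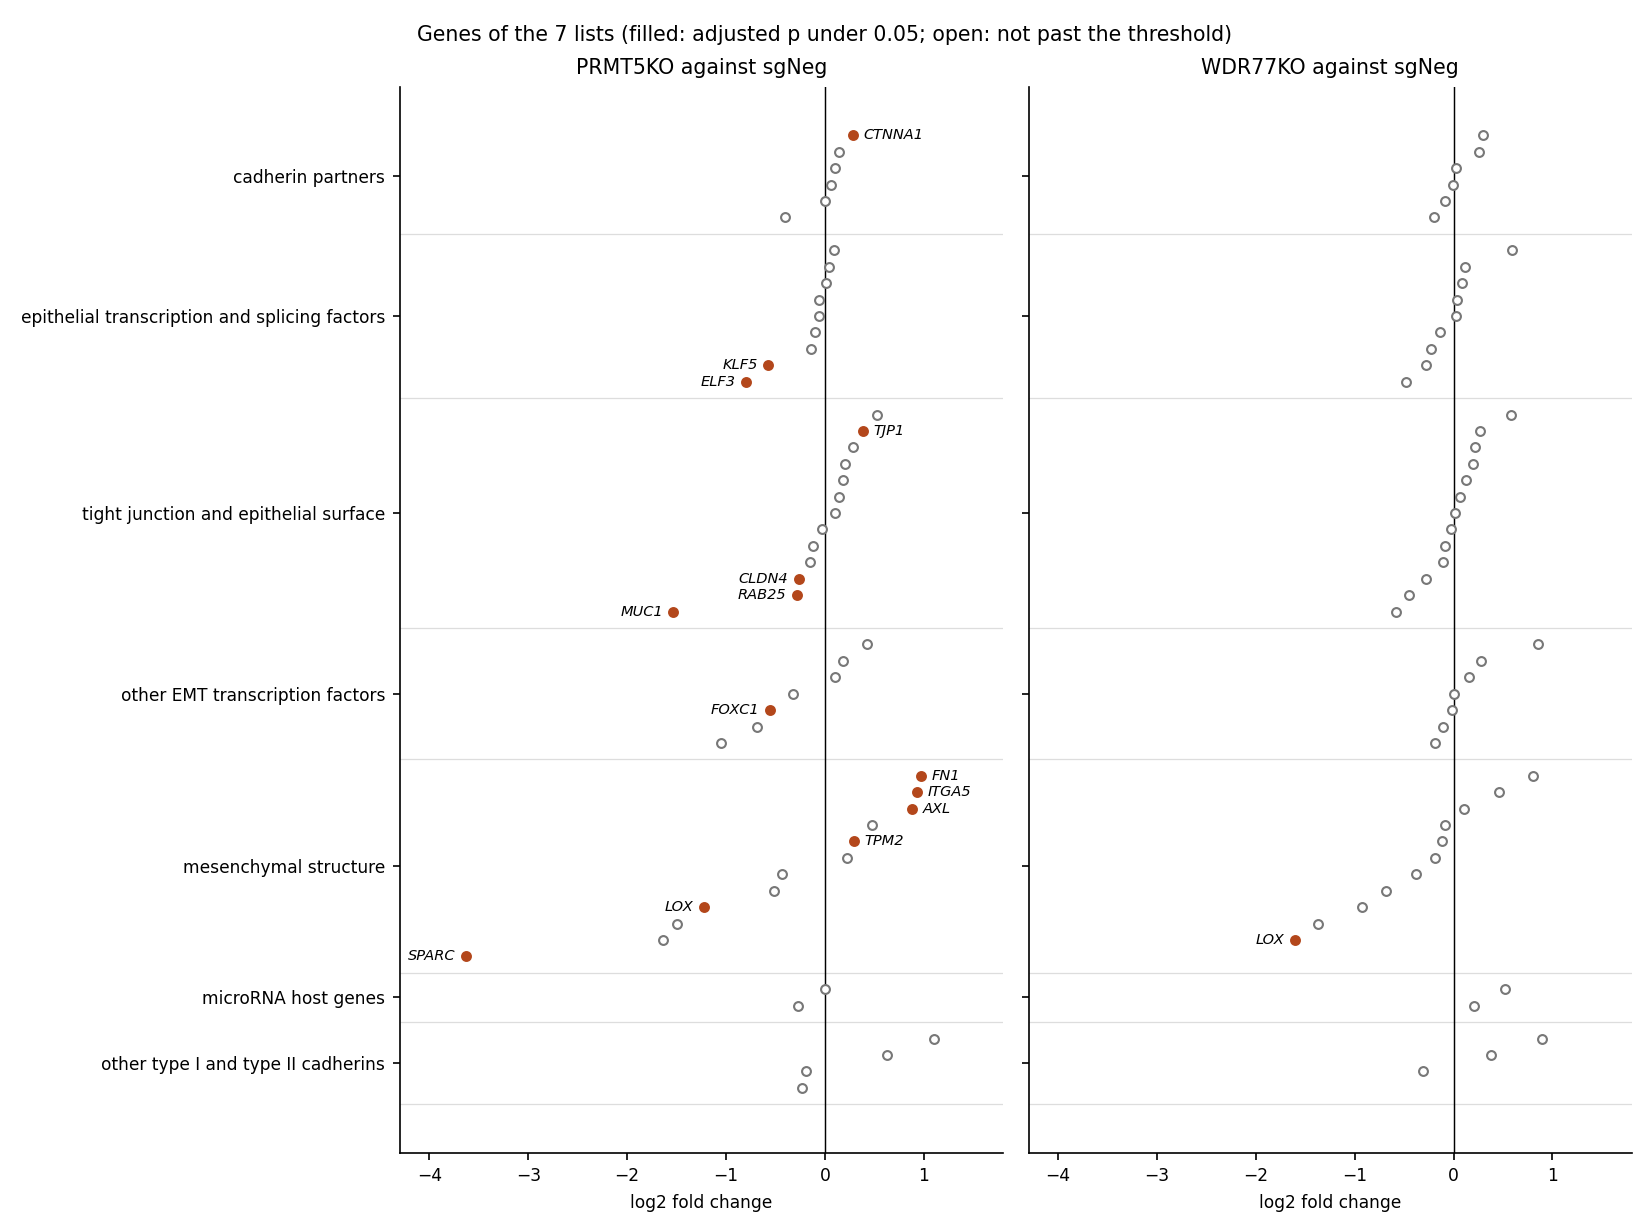
Log2 fold change (limma) of the tested genes of the 7 lists in PRMT5KO and WDR77KO against sgNeg, with 1 point per gene, filled symbols for an adjusted p below 0.05 and open symbols for the others, grouped by list on the vertical axis. SPARC lies lowest in PRMT5KO at -3.63, and FN1, at 0.97, and ITGA5, at 0.93, are the highest of the filled symbols.

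The genes whose differences ran closest to those of the called genes were sought among 8955 genes tested in all 4 comparisons of a single sgRNA with sgNeg, by the root mean square difference of the 4 log2 fold changes (8956 for SNAI1). For CDH2, with log2 fold changes of 1.10 and 1.70 for the PRMT5 sgRNAs and 0.38 and 0.77 for the WDR77 sgRNAs, the nearest was IL1A, at 0.91 and 1.79 and at 0.56 and 0.69 (root mean square difference 0.145), followed by VEGFC (0.149) and NAV3 (0.235). For CDH1 the nearest were PHAX (0.0365), BICD1 (0.0393) and AZI2 (0.0427). For SNAI1 the nearest were FGFR4 (0.0376), NLRX1 (0.0404) and TMEM129 (0.0474). ZEB1 was not tested in all 4 comparisons and had none.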

How the data were processed

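RNA-seq libraries of HSC-5 cells were read as gene counts; the 15 tables deposited by the authors hold raw read counts, with no other processing, made with STAR on hg38 and htseq-count. The paper names the TruSeq RNA Library Prep Kit v2 and single-end reads, and the labels a stranded mRNA protocol. The 5 summary entries of htseq-count were left out. Genes were named by the symbols in the tables, and 60507 of 60649 identifiers matched GENCODE v44, which gave positions and exon lengths; promoters came from RefSeq (GRCh38.p14). Counts were scaled with TMM factors (trims 0.3 and 0.05) in R 4.3.3. limma 3.58.1 (voom) was fitted for each comparison to the libraries compared, over genes with a mean normalized count of at least 3, with Benjamini-Hochberg adjustment over all genes tested and a threshold of 0.05; CPM are counts scaled by the library total and its TMM factor. The procedure was tested on simulated data in which all libraries of a group changed alike, so differences between pooled sgRNAs were not covered. Depth was 5146711 to 6730428 assigned reads per library. The comparisons were PRMT5KO, WDR77KO and each sgRNA with sgNeg, the sgRNAs of a gene with each other, PRMT5KO with WDR77KO, and an F test over the 5 conditions. Alternatives were other scalings, count minimums, 1 fit over 15 libraries, a replicate block, limma-trend, an added fold change criterion and leaving out each library. The members and lists were chosen with earlier results of these data known. Besides all members, the text names PRMT5 and WDR77, of each list up to 4 genes called in PRMT5KO or WDR77KO with the smallest adjusted p, and the 3 genes nearest to each member called with a single sgRNA, among genes with a mean of at least 10 CPM. Python 3.11.15 read the tables and drew the figures.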

Additional observations from a re-analysis of the deposited data

Results flagged for a closer look

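In each of PRMT5KO and WDR77KO, the gap between the highest or lowest of the 6 libraries and its nearest neighbour was divided by the range of the 6. Of 20 groups of 6 libraries, 7 had a gap ratio above the critical value for 6 libraries. For 6 replicates of a single population, chance marks about 1 in 20 groups. Each group here pools both sgRNAs of a gene, and VIM and ZEB2 had very few reads, so that value may not apply. CDH1 in PRMT5KO had a gap ratio of 0.627, with 1 sgPRMT5-1 library lowest at 364 CPM. CDH1 in WDR77KO had a ratio of 0.743, with sgWDR77-1 replicate 1 highest at 460.0 CPM. The same library was highest for EPCAM in WDR77KO, at 510.2 CPM (ratio 0.749). SNAI1 in WDR77KO had a ratio of 0.673, with sgWDR77-2 replicate 3 highest at 9.36 CPM. TWIST1 in PRMT5KO had a ratio of 0.658, with sgPRMT5-2 replicate 2 highest at 7.31 CPM. VIM in PRMT5KO had a ratio of 0.803, with the highest library at 1.03 CPM, and ZEB2 in WDR77KO had a ratio of 1, with reads in 1 library alone, sgWDR77-2 replicate 3; both genes were at or near the limit of detection.

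Differences between knockouts or sgRNAs were past the threshold in limma for CDH2 and CDH3. CDH2 was higher with sgPRMT5-2 than with sgPRMT5-1 by 0.595 on the log2 scale and higher in PRMT5KO than in WDR77KO by 0.847. CDH3 was lower with sgPRMT5-2 than with sgPRMT5-1, with a log2 fold change of -0.234.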

How the results depend on the processing

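No call among the members, PRMT5, WDR77 and the named list genes turned direction under any alternative run. CDH2 was called in PRMT5KO under 18 of 18 alternatives (log2 fold change 1.29 to 1.49), with sgPRMT5-1 and sgPRMT5-2 under 15 of 15 each (0.99 to 1.20 and 1.59 to 1.82), and between PRMT5KO and WDR77KO under 20 of 21 (0.70 to 0.93). Over single genes and list counts, 2028 values held, 72 lost a call, 26 gained one and 73 moved otherwise (a list count, or the sign of an uncalled gene); the causes were not tested except where an alternative's construction gives them.

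Asking also for a log2 fold change of 1 or more in size left 1 of the tested members called in PRMT5KO (3.76% of all genes), 2 with sgPRMT5-2 (8.80%), and 0 in WDR77KO (1.48%), with sgWDR77-1 (1.12%), with sgWDR77-2 (1.37%), between the PRMT5 sgRNAs (2.76%) and between PRMT5KO and WDR77KO (2.74%). In 1 fit over 15 libraries, limma called 2 in WDR77KO (8.44% of all genes) and 1 between the PRMT5 sgRNAs (7.53%). With sgPRMT5-1, 2 were called with upper quartile scaling (4.13% of all genes) and 2 with no filter (3.81%).

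Taken over all groups, the replicate numbers do not pair the libraries: over 30 pairs with the same number the correlation of residuals had a median of -0.00565, and 5 of 15 libraries correlated best with their own number. Of these 30 pairs, 4 were above 0.1, beside 7 of 60 pairs with other numbers. Between sgNeg and sgPRMT5-1, however, the pairs with the same number were all positive (0.0671, 0.112 and 0.272). The highest correlation of all, 0.456, was between libraries of unlike number, sgPRMT5-1 replicate 3 and sgWDR77-2 replicate 1. What libraries of different groups may share was not tested. With a replicate block, limma called 2 with sgPRMT5-1 (CDH1 adjusted p = 0.0124), 0 with sgWDR77-1 (CDH1 0.0673) and 1 with sgWDR77-2 (CDH1 0.0701). Of all genes, the block called 10.8% with sgPRMT5-1 (3.76% without it), 3.05% with sgWDR77-1 (2.71%) and 2.71% with sgWDR77-2 (4.97%).

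Leaving out 1 library at a time gave 1 to 2 called members in PRMT5KO (3.43 to 25.3% of all genes), 0 to 2 in WDR77KO (1.41 to 4.79%), 1 with sgPRMT5-1 (1.49 to 3.60%), 3 to 4 with sgPRMT5-2 (32.9 to 40.3%), 0 to 1 with sgWDR77-1 (0.393 to 7.01%), 1 to 2 with sgWDR77-2 (2.08 to 4.68%), 1 to 3 between the PRMT5 sgRNAs (10.3 to 33.6%), 0 between the WDR77 sgRNAs (0 to 1.11%), 1 to 2 between PRMT5KO and WDR77KO (6.26 to 22.6%) and 2 to 3 in the F test (25.3 to 41.7%). Without sgWDR77-1 replicate 1, KLF5 (-0.60, adjusted p = 0.00226) and CTNNA1 (0.31, adjusted p = 0.0465) gained calls in WDR77KO. ZEB1 passed the threshold between PRMT5KO and WDR77KO without sgPRMT5-1 replicate 3 (1.52, adjusted p = 0.0255), but it is tested there only through the PRMT5 libraries where it is high, so this adds nothing to the count. Of all genes, PRMT5KO had 2397 called, and 483, 673 or 1297 without sgNeg replicate 1, 2 or 3, while WDR77KO had 477, 213, 259 or 199 without these, and 1187 in 1 fit over 15 libraries. Scaling by median of ratios, upper quartile or library totals moved the median of all genes by at most 0.08 on the log2 scale (-0.08). Fits with edgeR or DESeq2 were not run, because an automatic check of units could not read the layout of the tables. The tables themselves hold raw read counts. Depth limits ZEB1, ZEB2 and VIM, with 66, 6 and 34 reads in all 15 libraries.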

Other observations

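Among the other cadherins and the mesenchymal genes, CDH5 and AXL lie outside the naming rule and were singled out after their values were seen. CDH5, the endothelial cadherin gene, averaged 18.5 ± 4.05 CPM (SD, n = 3) in sgNeg and 31.6 ± 2.33 CPM with sgWDR77-1, with all 3 libraries above sgNeg. With the other sgRNAs it overlapped sgNeg, at 16.8 ± 4.10 CPM (sgPRMT5-1), 15.6 ± 0.552 CPM (sgPRMT5-2) and 17.6 ± 0.392 CPM (sgWDR77-2). AXL, a receptor tyrosine kinase gene, averaged 49.1 ± 5.14 CPM in sgNeg, and its libraries were all above sgNeg with sgPRMT5-1 (69.3 ± 9.43 CPM) and sgPRMT5-2 (120.0 ± 2.52 CPM). They were all below sgNeg with sgWDR77-1 (23.0 ± 2.69 CPM) and overlapped sgNeg with sgWDR77-2 (41.1 ± 10.9 CPM).

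The 4 melanocyte markers summed to between 2.55 and 7.48 CPM, with PMEL at 0.680 to 5.66 CPM and TYR and DCT at 0 in all libraries. By this sum, the sgNeg libraries (4.72 to 6.08 CPM) were all above the 6 PRMT5KO libraries and overlapped the WDR77KO libraries. MLANA, at 11 counts or fewer per library, went the other way with sgPRMT5-2. It averaged 0.978 ± 0.296 CPM (SD, n = 3) in sgNeg, 0.81 ± 0.406 with sgPRMT5-1 and 1.65 ± 0.238 with sgPRMT5-2. With the WDR77 sgRNAs, MLANA averaged 0.916 ± 0.792 CPM (sgWDR77-1) and 1.16 ± 0.383 CPM (sgWDR77-2).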
